A study of Mus musculus with 6 samples.

Results

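The genes described here are 10 liver genes that encode serum amyloid A and other plasma proteins of the acute phase response, namely Saa1, Saa2, Saa3, Saa4, Orm1, Orm2, Hp, Hpx, Crp and Apcs. They were found by symbol among the 25230 genes of the deposited count table, where all 10 were present, and all 10 were among the 12506 genes with enough counts to be tested. RNA was sequenced from 3 early liver lesions, regions in which glycogen had accumulated and which carry the label small tumour, and from 3 regions of normal adjacent liver, and the comparison asks which transcripts differ between them. All 6 regions came from male C57BL/6 mice given 25 mg/kg of the liver carcinogen diethylnitrosamine (DEN) by intraperitoneal injection at 14 days of age, so the normal regions had been exposed to DEN as well. Both groups carry a time label of 7 months. The tissue was formalin-fixed and paraffin-embedded and was dissected from serial sections, and no untreated mouse is part of the comparison. The labels pair lesions with adjacent regions in words but do not say which mouse each library came from, so p-values measure the spread between these libraries only.

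Acute phase proteins are secreted mainly by hepatocytes, and their plasma levels change within hours to days of injury or infection. Interleukin-6 acts through the gp130 receptor and the transcription factor STAT3, and interleukin-1 and tumour necrosis factor act through NF-kB and the C/EBP factors, to raise transcription of the positive acute phase genes, while transcripts of other plasma proteins such as albumin fall. In the mouse, Saa1, Saa2 and serum amyloid P (Apcs) are strongly inducible, whereas Crp is a weak responder in contrast to its human counterpart, and Saa4 is largely constitutive.

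Libraries held 6352898 to 6542997 counts in normal regions and 7294716 to 7412833 in lesions. Lesion 3 stood apart from the other 2 lesions on the second principal component (13.0% of the variance), while the first (68.0%) separated lesions from normal regions. Values without lesion 3 are therefore given as well for Orm2, Orm3, Hp, Hpx, Apcs and the share of Orm1. A gene was called at an adjusted p under 0.05 by edgeR's quasi-likelihood test, adjusted over all tested genes. Levels of a gene are CPM, reads relative to the scaled library size (TMM, mean ± SD, n = 3), and levels are compared between genes as deposited FPKM, which are also per length. Where a share of counts is given for some of the genes it is not per length, and it is compared between groups, not between genes. These are bulk libraries, in which fewer cells of a type and less RNA per cell cannot be told apart.

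Of the 10 genes, 7 were lower in lesions (Saa1 to Saa4, Orm1, Orm2 and Crp), 1 was higher (Hp) and 2 were not called (Hpx and Apcs) by the edgeR test. Over all tested genes, 18.4% were called lower and 18.7% higher. The median log2 fold change, lesion over normal, was -1.15 over the 10 genes and 0.0031 over all tested genes. In the same 7 genes all 3 lesions lay below all 3 normal regions, as they did for 24.0% of all tested genes, and in Hp and Apcs all lesions lay above all normal regions, as for 24.2%. The authors' deposited table of the same comparison also has 7 of the 10 genes lower and 1 higher at an adjusted p under 0.05.

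The promoters of Saa2, Orm2 and Hpx are shown as those of a lower gene of the Saa family, a lower gene of the Orm family and a gene that was not called. Crp was lower too, and its promoter is not shown. Each is given 5′ to 3′ on the gene's strand, from 200 to 51 bases before the RefSeq start (GRCm38.p6), with capitals for exact matches to the C/EBP element TTNNGNAA on either strand.
Saa2, chr7:46751633-46751782, plus strand: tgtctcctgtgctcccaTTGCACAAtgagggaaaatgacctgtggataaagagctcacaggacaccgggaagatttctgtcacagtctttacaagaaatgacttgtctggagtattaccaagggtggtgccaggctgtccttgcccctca
Orm2, chr4:63362249-63362398, plus strand: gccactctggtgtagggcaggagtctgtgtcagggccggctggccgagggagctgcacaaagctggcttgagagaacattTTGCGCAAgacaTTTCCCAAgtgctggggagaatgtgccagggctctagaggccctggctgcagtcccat
Hpx, chr7:105600167-105600316, minus strand: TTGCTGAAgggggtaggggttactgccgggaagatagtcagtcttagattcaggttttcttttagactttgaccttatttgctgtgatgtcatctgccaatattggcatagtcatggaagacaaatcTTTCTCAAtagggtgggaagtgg
RefSeq's promoter table uses a later start for Saa1 and Saa3 than the outer bound of the gene, by 201 and 3939 bases, so their windows lie wholly or mostly inside the gene as its bounds are given. The full windows of 250 bases before the start used are 94.8% identical between Saa1 and Saa2 (238 of 251 alignment columns). Both hold the match TTGCACAA, 182 bases before the start in Saa1 and 183 in Saa2, and a match 86 bases before the start is found in Saa1 and not in Saa2. Orm2 has matches 120 and 108 bases before its start, the first of which, TTGCGCAA, reads on both strands.

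A window was found for 8 of the 10 genes, all but Orm1 and Hp. Exact C/EBP matches were in 7 of the 8 (all but Apcs), against 36.8% of all 32851 promoter windows of the same length, and in 5 of the 6 whose window lies outside the gene's bounds. The STAT element TTCNNNGAA was in 1 of 8, Apcs, 244 bases before its start, against 7.02% of windows. The NF-kB letters GGGNNTTTC (3.72% of windows) and the HNF4 letters TGNACTTTG (1.19%) were in 0 of 8. The TATA box letters TATAAA were in Orm2 and Crp, 33 and 31 bases before the start, against 12.4% of windows. Genes with a C/EBP match include 6 that were lower in lesions and Hpx, which was not called. These matches are descriptions of letters, and binding was not measured.

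Saa1 and Saa2 encode the inducible apolipoproteins that coat high-density lipoprotein in the acute phase. Saa1 (Entrez 20208, chr7:46740497-46743181, minus strand) had 195, 200 and 209 CPM in normal regions 1 to 3 and 70.5, 67.5 and 57.4 CPM in lesions 1 to 3. Saa2 (Entrez 20209, chr7:46751833-46754313, plus strand) had 114, 123 and 123 CPM in normal regions and 37.3, 35.0 and 29.1 CPM in lesions. In both genes every lesion lay far below every normal region, and lesion 3 was the lowest library. Saa1 fell from 201 ± 7.26 to 65.1 ± 6.89 CPM, 3.09-fold, with a log2 fold change of -1.63 (SE 0.0754, edgeR adjusted p 2.2e-12). Saa2 fell from 120 ± 5.46 to 33.8 ± 4.23 CPM, 3.55-fold, with a log2 fold change of -1.83 (SE 0.0867, edgeR adjusted p 3.1e-12). Among all tested genes, ordered from the lowest log2 fold change, they stood at places 44 and 25.

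The transcripts of Saa1 and Saa2 are near copies. In the GENCODE M21 annotation, 31.5% of the 50-base words of Saa1 transcripts are shared with another gene, nearly all of them with Saa2. Of the words of Saa2, 30.0% are shared with Saa1, so reads may have been split between the 2 genes. These are shares of words, not of reads. Saa1 had 2519 words and Saa2 2616, while Orm1 and Orm2 had 726 each, so the shares of the 2 families are not like values. The sum of Saa1 and Saa2 does not depend on how counted reads were split and had a log2 fold change of -1.70 (SE 0.0740, edgeR adjusted p 1.29e-12). Whether reads that fit both genes were counted at all is not known. Saa1 made up 63.1, 61.8 and 62.9% of the counts of the pair in normal regions and 65.4, 65.8 and 66.3% in lesions. The share was higher in all 3 lesions than in any normal region, by 3.26 percentage points (two-sided exact permutation test, p = 0.1, the smallest that 3 against 3 libraries allow).

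Saa4 (Entrez 20211, chr7:46727992-46732603, minus strand), the constitutive member of the family, had 479, 511 and 484 CPM in normal regions and 245, 209 and 217 CPM in lesions. The groups did not overlap, and the fall from 491 ± 17.3 to 224 ± 19.1 CPM was 2.20-fold (log2 fold change -1.14, SE 0.0648, edgeR adjusted p 4.3e-11). Its interval of -1.271 to -0.9999 does not meet the intervals of Saa1 (-1.78 to -1.47) or Saa2 (-2.01 to -1.65). A gene-by-gene test of that difference was not run. On the FPKM scale, Saa4 made up 30.7, 31.2 and 29.4% of the level of the 4 Saa genes in normal regions and 39.6, 36.7 and 41.9% in lesions.

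Saa3 (Entrez 20210, chr7:46711998-46719615, minus strand), which in mice is made by macrophages and other cells outside the hepatocyte lineage as well as by liver, was the scarcest of the 10. It had 34, 28 and 35 counts in normal regions and 7, 14 and 6 in lesions. All lesions were below all normal regions, with lesion 2 the highest lesion. The level fell from 4.78 ± 0.578 to 1.28 ± 0.593 CPM, 3.68-fold, with a log2 fold change of -1.88 (SE 0.332, edgeR adjusted p 0.00017). The interval of the log2 fold change, -2.57 to -1.19, is the widest of the genes called, as the counts are few. Of the Kupffer cell and macrophage markers, 12 of 12 were also lower in lesions, against 18.4% of all tested genes. With DESeq2, limma-voom or the replicate number as a block it was 11 of 12, and without replicate number 1 of both groups 10 of 12. The summed level of these markers was 1137 to 1237 CPM of all counts in normal regions and 668 to 681 in lesions. Their log2 fold changes ran from -1.17 (Timd4) to -0.36 (Cd68). The part of these cells in the fall of Saa3 was not tested.

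**Figure D1:**
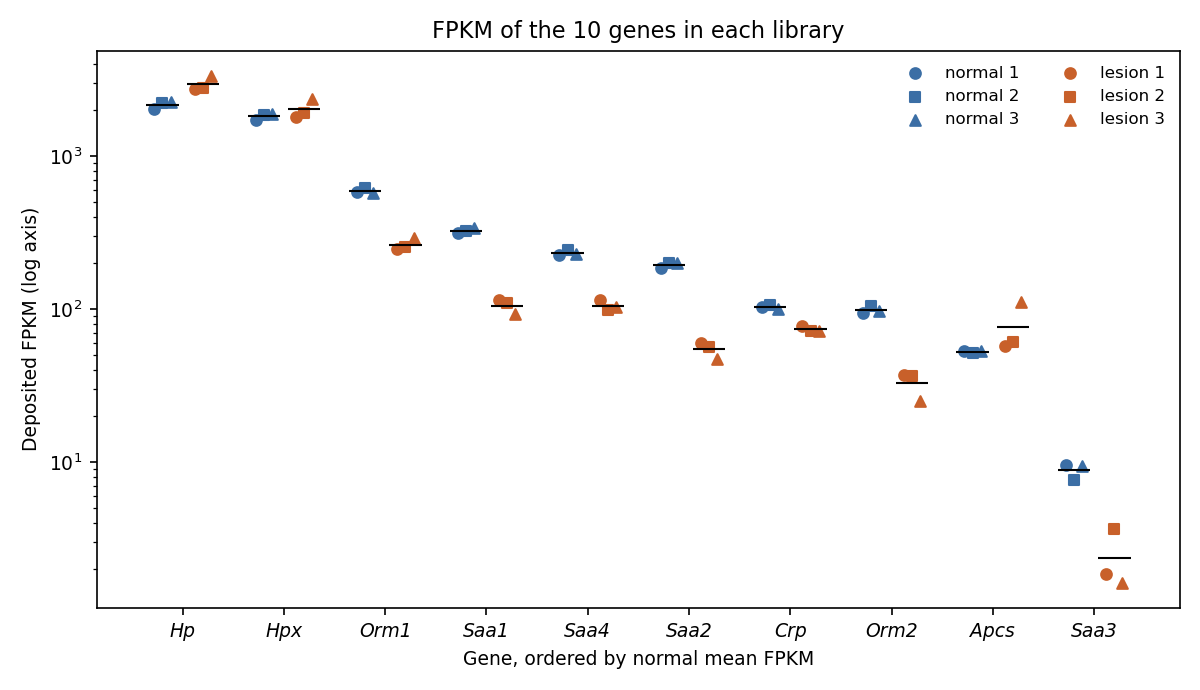
Deposited FPKM (log axis) of the 10 genes in each of the 6 libraries, with genes in order of their normal mean. Marker shapes give the replicate number, colours the group, and bars the group mean. Hp and Hpx lie highest in both groups, the Saa and Orm genes are lower in lesions, and Apcs is spread by lesion 3.

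The orosomucoids, or alpha-1-acid glycoproteins, are abundant plasma proteins that bind drugs and other small molecules. Orm1 (Entrez 18405, chr4:63344556-63348163, plus strand) had 457, 483 and 453 CPM in normal regions and 194, 200 and 229 CPM in lesions. Orm2 (Entrez 18406, chr4:63362449-63365877, plus strand) had 73.6, 82.2 and 76.0 CPM in normal regions and 29.1, 28.7 and 19.6 CPM in lesions. The groups overlapped in neither gene, but lesion 3 was the highest lesion for Orm1 and the lowest for Orm2. Orm1 fell from 464 ± 16.1 to 207 ± 18.9 CPM, 2.24-fold (log2 fold change -1.16, SE 0.0661, edgeR adjusted p 4.05e-11). Orm2 fell from 77.3 ± 4.46 to 25.8 ± 5.36 CPM, 2.99-fold (log2 fold change -1.58, SE 0.119, edgeR adjusted p 8.04e-08). Without lesion 3 the log2 fold change of Orm2 was -1.42.

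Orm1 was the most abundant of the 7 genes that fell, at 591 ± 21.2 FPKM in normal regions and 264 ± 24.7 FPKM in lesions. Orm1 and Orm2 share 20.4% of their 50-base words. Orm3, a further copy outside the 10 genes (Entrez 18407), had 110, 132 and 128 counts in normal regions and 44, 49 and 19 in lesions (log2 fold change -1.77, SE 0.221, edgeR adjusted p 1.62e-05). Without lesion 3 the log2 fold change of Orm3 was -1.47. The 3 copies summed had a log2 fold change of -1.23 (SE 0.0593, edgeR adjusted p 3.74e-12). Orm1 made up 86.1, 85.4 and 85.6% of the Orm1 and Orm2 counts in normal regions and 87.0, 87.4 and 92.1% in lesions. The share was higher in every lesion, by 3.10 percentage points (two-sided exact permutation test, p = 0.1, the smallest possible), and by 1.46 points without lesion 3.

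Haptoglobin (Hp) binds free haemoglobin and hemopexin (Hpx) binds free haem, and both are inducible in mouse liver. They were by far the most abundant of the 10 genes, at 2157 ± 119 and 1825 ± 86.3 FPKM in normal regions, places 22 and 25 among all genes ordered by normal FPKM. Hp (Entrez 15439, chr8:109575128-109579172, minus strand) had 2746, 2983 and 3045 CPM in normal regions and 3709, 3759 and 4499 CPM in lesions. It was higher in every lesion than in any normal region. The rise from 2925 ± 158 to 3989 ± 442 CPM was 1.36-fold (log2 fold change 0.45, SE 0.0707, edgeR adjusted p 0.000147). Lesion 3 was the highest library, and without it the log2 fold change was 0.35.

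Hpx (Entrez 15458, chr7:105591611-105600116, minus strand) had 2581, 2763 and 2822 CPM in normal regions and 2692, 2838 and 3489 CPM in lesions. Lesions 1 and 2 lay within or just above the range of the normal regions, and lesion 3 lay above it. The means of 2722 ± 126 and 3006 ± 424 CPM gave a log2 fold change of 0.14 (interval -0.05 to 0.34, edgeR adjusted p 0.238). Without lesion 3 it was 0.02, and without lesion 1 it passed the threshold (0.22, edgeR adjusted p 0.0410). The FPKM ratio of Hp to Hpx was 1.17, 1.19 and 1.19 in normal regions and 1.52, 1.46 and 1.42 in lesions, with no overlap between groups.

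The pentraxins Crp, C-reactive protein, and Apcs, serum amyloid P, are ring-shaped pattern recognition proteins encoded near each other on chromosome 1. Crp (Entrez 12944, chr1:172698056-172699966, plus strand) had 178, 182 and 172 CPM in normal regions and 134, 123 and 124 CPM in lesions. The groups did not overlap, and the fall from 177 ± 5.38 to 127 ± 5.93 CPM was 1.40-fold (log2 fold change -0.48, SE 0.0630, edgeR adjusted p 5.94e-06). Crp overlaps the pseudogene Gm38051 on the same strand over 433 bases, the only overlap with another annotated gene among the 10, and reads of the overlap cannot be told apart.

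Apcs (Entrez 20219, chr1:172893961-172895054, minus strand) had 52.9, 51.5 and 52.6 CPM in normal regions and 57.1, 60.5 and 110 CPM in lesions. All 3 lesions were above all normal regions, but lesion 3 was far above the other 2, and the SD was 29.4 CPM in lesions and 0.712 CPM in normal regions. The log2 fold change of 0.53 (interval -0.30 to 1.36, edgeR adjusted p 0.262) was not called, and without lesion 3 it was 0.17 (edgeR adjusted p 0.0785). The FPKM ratio of Apcs to Crp was 0.512, 0.488 and 0.529 in normal regions and 0.736, 0.846 and 1.53 in lesions.

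**Figure D2:**
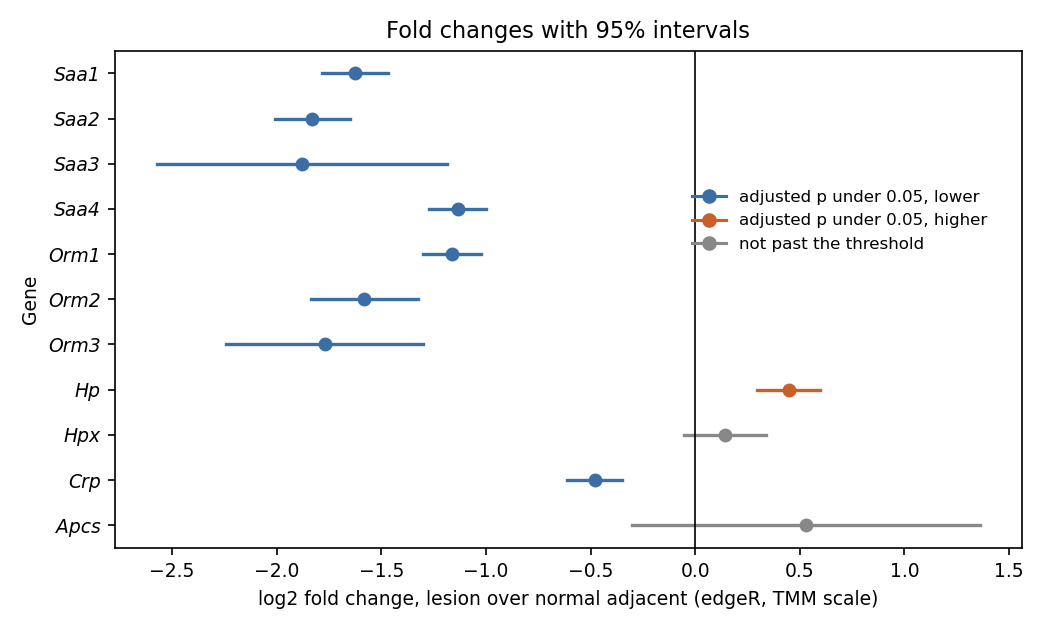
log2 fold change, lesion over normal adjacent, from edgeR for the 10 genes and the paralog Orm3, with 95% intervals as bars and the call as colour (n = 3 libraries a group). The Saa and Orm genes lie between -1.88 and -1.14, Crp at -0.48 and Hp at 0.45, and the intervals of Hpx and Apcs cross 0.

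Together the 10 genes took 0.717, 0.774 and 0.783% of all counts in normal regions and 0.690, 0.706 and 0.814% in lesions, a difference of -0.0214 percentage points (two-sided exact permutation test, p = 0.8). The sign of that difference depended on the total used, since it was 0.0474 points (p = 0.6, exact permutation test) with albumin and ribosomal and small RNA left out of the total. Hp and Hpx made up 77.4, 77.8 and 78.8% of the counts of the 10 genes in normal regions and 89.3, 90.1 and 91.0% in lesions. The other 8 genes took 0.162, 0.172 and 0.166% of all counts in normal regions and 0.0739, 0.0699 and 0.0730% in lesions.

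Lesions differed among themselves in how far each gene moved. Relative to the normal mean of log2 CPM, lesion 3 had the largest deviation of the 3 lesions in Saa1 (-1.81), Saa2 (-2.03), Saa3 (-2.11), Orm2 (-1.96), Hp (0.62), Hpx (0.36) and Apcs (1.06). In Orm1 it had the smallest (-1.02), against -1.26 and -1.22 in lesions 1 and 2. Crp was the most even among the genes called lower, at -0.40, -0.52 and -0.52.

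**Figure D3:**
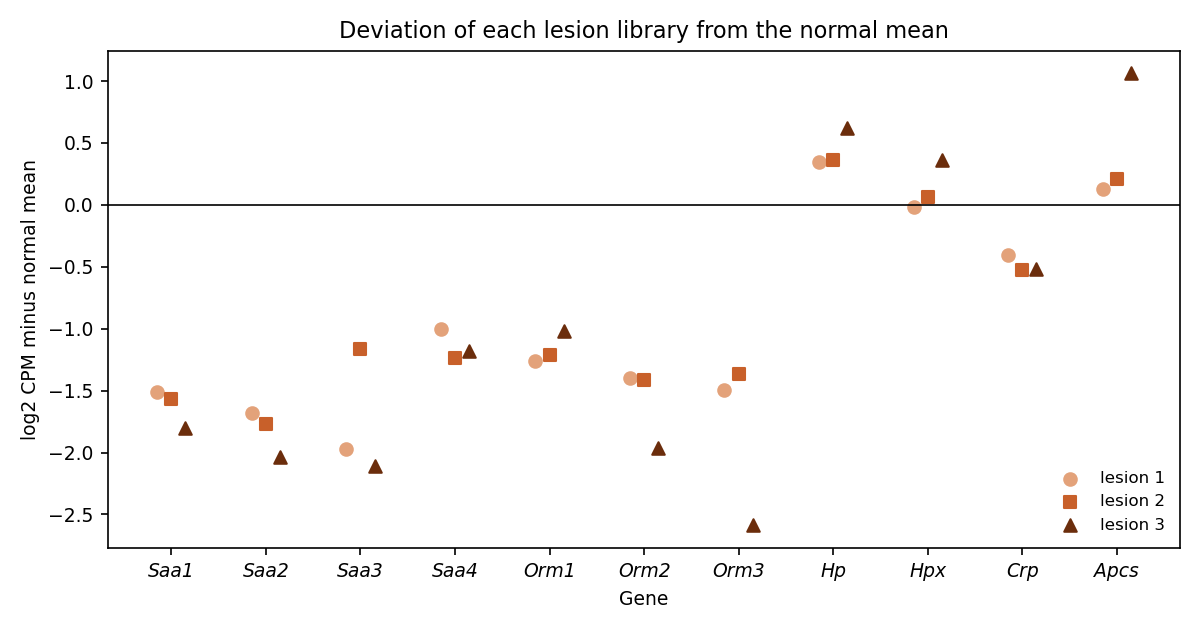
log2 CPM of each lesion minus the mean of the normal regions, for the 10 genes and the paralog Orm3. Symbols are the 3 lesion libraries, and the line at 0 is the normal mean. Lesion 3 lies lowest for Saa1, Saa2, Orm2 and Orm3 and highest for Hp, Hpx and Apcs.

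Genes were compared by the distance between their log2 CPM over the 6 libraries, with each gene's own normal mean subtracted first. Near genes are thus alike in their change and need not be alike in level. Ranked were 7876 tested genes whose mean reached 10 CPM. The genes nearest to Saa1 were C9, which encodes a terminal complement component (distance 0.161), and Cyp2c54, which encodes a cytochrome P450 (0.184). Those nearest to Saa2 were Mup12, of the major urinary proteins (0.239), and Cyp2c50 (0.260). Those nearest to Orm1 were Lipg, an endothelial lipase (0.0986), and Aass, an enzyme of lysine breakdown (0.128). Those nearest to Hp were H2-T23, a class I histocompatibility gene (0.0337), and Polr2e, a subunit of RNA polymerase II (0.0743). Mup12 and the Cyp2c genes have near-identical copies of their own.

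Other genes that flank the clusters were compared in the same fit. Within 100000 bases of the Saa genes, 5 other protein-coding genes were tested and 0 were called by edgeR, 2 had an unadjusted p under 0.05, and 0 were called by DESeq2. Near the Orm genes 3 were tested and 1 was called, Col27a1, a fibrillar collagen gene, which was higher (log2 fold change 0.34, edgeR adjusted p 0.000126). Near Hp, 5 were tested and 0 were called by edgeR, none at an unadjusted p under 0.05 and 0 by DESeq2. Near Hpx, 2 of 5 were called lower by edgeR and 0 by DESeq2. These were Smpd1, acid sphingomyelinase (log2 fold change -0.30), and Dnhd1 (-0.56), named here after their values were seen. Near the pentraxins 1 was tested, Dusp23, with a log2 fold change of -0.39 (edgeR adjusted p 0.0955).

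The IL-6 family acts through paired receptor chains, Janus kinases and STAT3. Of its 13 tested genes, 6 were lower, 1 was higher and 6 were not called by edgeR, with a median log2 fold change of -0.22. Over all tested genes the median was 0.0031, with 18.4% lower and 18.7% higher, and the medians and counts of the other lists stand against the same values. Il6st, which encodes the shared receptor chain gp130, fell from 284 ± 5.86 to 195 ± 9.54 CPM (log2 fold change -0.54, edgeR adjusted p 5.53e-07). Lifr, the receptor of leukaemia inhibitory factor, fell from 443 ± 9.86 to 302 ± 23.9 CPM (-0.55, edgeR adjusted p 7.77e-07). Tyk2, a Janus kinase, rose from 28.9 ± 3.90 to 40.7 ± 5.97 CPM (0.50, edgeR adjusted p 0.00325). Counts of the ligands Il6, Il11, Osm and Lif were under the filter for the test. Il6 had 0, 0 and 3 counts in normal regions and 0, 2 and 0 in lesions. Lif, the ligand of Lifr, had 1, 0 and 1 counts in normal regions and 18, 15 and 8 in lesions, so every lesion was above every normal region. With no count filter, where it was tested, Lif was higher (edgeR adjusted p 5.82e-07), and the adjusted p was at most 0.0115 in the other fits that kept it. The count of genes called lower was 3 with DESeq2 and 9 when scaled by library size alone. Without any single library it was 3 to 5, with 1 to 3 higher. The call of Tyk2 was lost without replicate number 1 or 2 of both groups, and in the fit of log2(FPKM + 1) with no filter.

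IL-1, TNF and NF-kB signalling genes were mostly not called, with 2 lower, 3 higher and 13 not called of 18 tested (median -0.08). The 2 that were lower form the IL-1 receptor. Il1r1, its binding chain, fell from 34.1 ± 1.53 to 18.5 ± 2.79 CPM (log2 fold change -0.88, edgeR adjusted p 6.42e-06), and Il1rap, its accessory chain, from 118 ± 3.11 to 76.3 ± 4.22 CPM (-0.63, edgeR adjusted p 5.1e-07). Irak1, a kinase downstream of the receptor, rose from 63.7 ± 2.67 to 86.1 ± 2.52 CPM (0.44, edgeR adjusted p 8.21e-05). Scaled by library size alone, 5 were lower.

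Of the 9 liver transcription factors, 4 were lower (median -0.02). Nr3c1, the glucocorticoid receptor, fell from 109 ± 3.43 to 89.0 ± 4.77 CPM (log2 fold change -0.30, edgeR adjusted p 0.00186). Creb3l3, a membrane-bound factor known in mice to act on Crp and Apcs, fell from 189 ± 11.1 to 160 ± 3.42 CPM (-0.24, edgeR adjusted p 0.00462). Both calls were lost without replicate number 2 of both groups. Without normal replicate 1, 2 of the list were lower, and without replicate number 2 of both groups 1 was lower.

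Other positive acute phase genes went both ways, with 9 lower, 5 higher and 4 not called of 18 (median -0.15). Cp, the copper carrier ceruloplasmin, rose from 1106 ± 45.5 to 1907 ± 202 CPM (log2 fold change 0.79, edgeR adjusted p 5.84e-08). Mt1, a metal-binding metallothionein, rose from 12.7 ± 2.55 to 36.8 ± 6.58 CPM (1.53, edgeR adjusted p 2.04e-06). Lbp, which carries bacterial lipopolysaccharide, fell from 104 ± 3.25 to 74.2 ± 6.46 CPM (-0.49, edgeR adjusted p 3.31e-05). The count of lower genes was 5 without normal replicate 2 or without lesion replicate 1.

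All 9 negative acute phase genes, whose transcripts fall in inflammation, were called, 5 higher and 4 lower (median 0.56). Apoa1, the main apolipoprotein of high-density lipoprotein, rose from 2803 ± 41.5 to 8103 ± 624 CPM (log2 fold change 1.53, edgeR adjusted p 1.28e-13). Ahsg, fetuin-A, rose from 4075 ± 225 to 9467 ± 550 CPM (1.22, edgeR adjusted p 3.24e-12). Igf1, a circulating growth factor, fell from 749 ± 34.5 to 387 ± 14.5 CPM (-0.95, edgeR adjusted p 9.77e-11). The count of lower genes was 2 without normal replicate 2, normal replicate 3 or lesion replicate 1.

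Of the receptors and clearance genes for these proteins, 8 were lower and 4 were not called of 12 tested by edgeR (median -0.50). The count of lower genes was 5 of 13 tested without replicate number 2 of both groups, and 10 of 12 without lesion replicate 3. Cd163, the macrophage receptor of haptoglobin-haemoglobin complexes, fell from 103 ± 6.07 to 51.4 ± 3.70 CPM (log2 fold change -0.998, edgeR adjusted p 4.32e-09). Lrp1, which takes up hemopexin-haem complexes, fell from 3318 ± 163 to 2592 ± 56.8 CPM (-0.36, edgeR adjusted p 2.77e-05). Hmox1, the haem-degrading enzyme, fell from 96.3 ± 4.30 to 70.5 ± 4.42 CPM (-0.45, edgeR adjusted p 7.15e-05). Macrophage markers moved with Cd163 as given above for Saa3, and their part in it was not tested.

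**Figure D4:**
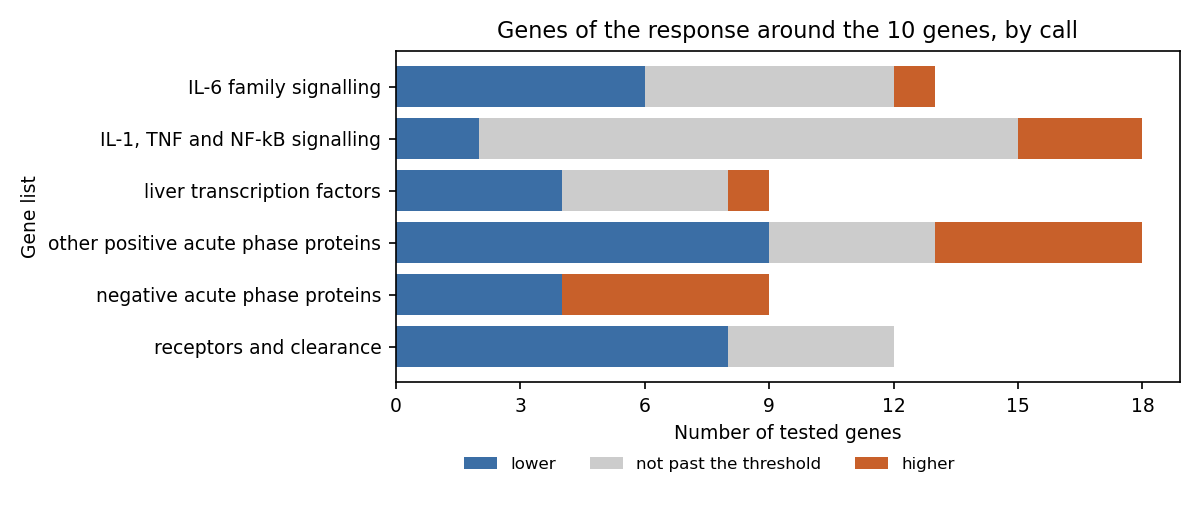
Number of tested genes of each list called lower, called higher or not called by edgeR at an adjusted p under 0.05. The receptors and clearance list has 8 lower and 4 not called, and all 9 negative acute phase genes were called, 5 of them higher.

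Markers of the other cell types were checked as well. All 8 hepatocyte markers were present and called, 2 higher (Alb and Apoa1) and 6 lower. Their summed level was 55037 to 59845 CPM of all counts in normal regions and 90005 to 106548 in lesions. That sum is mostly Alb, which took 3.37 to 3.72% of all counts in normal regions and 7.25 to 8.84% in lesions. Its rise therefore does not describe the 6 markers that were lower. Alb and Apoa1 also stand in the list of negative acute phase genes, as does Ttr. Of the neutrophil markers 1 of 10 had enough counts to test and it was not called, and Ly6g, Elane and Mpo were at 0 in every library. The summed level of the neutrophil markers was 9.29 to 13.7 CPM of all counts in normal regions and 8.64 to 10.5 in lesions. Of 9 lymphocyte markers 2 were tested and neither was called, at 10.5 to 12.6 and 10.7 to 11.9 CPM of all counts. Of 7 endothelial markers 1 was higher and 6 were not called, at 551 to 556 and 483 to 509 CPM of all counts. Of 8 stellate cell and fibroblast markers 3 were higher and 1 was lower, at 353 to 363 and 362 to 398 CPM of all counts. Of 6 cholangiocyte markers the 2 tested, Sox9 and Spp1, were higher, at 29.3 to 30.3 and 124 to 157 CPM of all counts. Adiponectin, Plin1 and Lep, which mark fat cells, were at 0 throughout. Of the 8 red cell genes, 5 were also at 0 in every library, Hba-a2 and the 4 Hbb genes. Alas2 and Slc4a1 had counts in every library, so these 0 values do not show that red cell RNA was absent. Their cause was not tested. Of the 2 red cell genes tested, Alas2, the haem synthesis enzyme of red cell precursors, was lower, at 112 ± 5.25 CPM in normal regions and 55.1 ± 4.91 CPM in lesions (log2 fold change -1.02, edgeR adjusted p 3e-09). Slc4a1, a red cell membrane protein, was not called, at 3.90 ± 0.483 and 3.96 ± 0.732 CPM (log2 fold change 0.02, edgeR adjusted p 0.954). The summed level of 115 to 125 CPM of all counts in normal regions and 52.0 to 60.7 in lesions is mostly Alas2. The part of these cells in the results was not tested.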

How the data were processed

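RNA was measured in 6 dissected regions, 3 lesions and 3 normal adjacent regions, from rRNA-depleted libraries made with 500 ng of RNA and 15 PCR cycles, per the labels' protocols. The build mm10 is named in the submitters' processing notes, along with DESeq2 1.24.0, STAR 2.5.2b, cutadapt 1.18 and CASAVA 1.8 but no role for any of them. For the counting step, its tool, annotation and strand handling were not given in the sources used here. Raw counts for each Entrez gene were deposited by the authors, and the labels name no molecular identifiers. The authors deposited FPKM values for the same libraries, per gene length and scaled library size. The authors' deposited table of the lesion comparison holds a log2 fold change with its error, a mean signal level, a test score and a p-value for each gene. Genes called in it were taken at an adjusted p under 0.05.

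Counts were tested with edgeR 4.0.16 (R 4.3.3; glmQLFit and glmQLFTest, two-sided, TMM scaling, robust, filterByExpr defaults, group as the only term), adjusted by Benjamini-Hochberg over the 12506 genes kept of 25230. Intervals are 95%. Depth, given in the report, and 3 libraries a group limit precision, most for Saa3. Alternatives were RLE, upper quartile and library size scaling, 2 other count filters, small RNA left out, DESeq2 1.42.0, limma-voom and limma-trend (limma 3.58.1) on log2(FPKM + 1) or log2(FPKM + 0.1), a fit that was not robust, the replicate block, the copies summed and each library left out. The fitting code was tested on simulated data. No pair of replicates agreed within sampling noise. The chi-square per degree of freedom was 1.36 to 3.19 between normal regions and 1.54 between lesions 1 and 2. Between lesion 3 and lesions 1 and 2 it was 10.3 and 10.4, so lesions 1 and 2 were far closer to each other. Whether any libraries share a mouse is not known, so the number of independent animals in a group is not known either. The labels do not tie regions to mice, so the fit has no block. Same-numbered libraries did not deviate together (r across genes 0.0112, -0.0205 and -0.0219). The numbers are not said to mark mice, so this cannot show whether lesion and normal regions share a mouse. All 10 genes are named, and from each pathway list up to 3 called genes with the lowest p. One gene that this rule names is not reported here. Cell type markers and ligands are named only to describe their lists, after their values were seen. The 10 genes and the lists were chosen with earlier results of these data known. The neighbour and shared-word analyses were added after the data were seen. Gene coordinates are those of RefSeq for GRCm38.p6, the assembly behind mm10, and promoter sequences are from RefSeq too; transcripts are those of GENCODE M21.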

Additional observations from a re-analysis of the deposited data

How the results depend on the processing

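The 7 genes called lower and Hp kept direction and call under each alternative run. Adjusted p reached at most 0.0378 for Hp, 0.00398 for Crp and 0.00995 for Saa3. Hpx was called with no count filter (log2 fold change 0.13, edgeR adjusted p 0.0452) and without lesion replicate 1 (0.22, 0.0410), and Apcs with a fit that was not robust (0.53, 0.0402), so 2 of the 10 genes were called higher in those fits; the range over fits that leave out a library or a replicate number was 1 to 2. Apcs ranged from 0.17 to 0.71 and Hpx from 0.0016 to 0.22 over the alternatives. Scaled by library size alone, the median log2 fold change of all tested genes was -0.14, and 3615 genes were lower and 1474 higher (29.0% of calls higher, against 50.5%), but the calls of the 10 genes did not change. DESeq2 called 1661 genes lower and 1761 higher. Leaving out libraries or replicate numbers gave 1352 to 2796 genes lower and 1349 to 2798 higher. The difference in the share of all counts taken by the 10 genes, -0.0214 percentage points, was 0.0474 without albumin and ribosomal and small RNA in the total and ran from -0.0601 to 0.00209 over fits that leave out libraries. These changes of sign lie within the spread between replicates, and the cause was not tested.

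With the replicate number as a block, 2233 genes were lower and 2293 higher, and the 10 genes gave 7 lower and 1 higher. Hpx then had an adjusted p of 0.106. The replicate block changed no call of the 10 genes.

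Depth limits Saa3, with 6 to 35 counts a library. Strand was not used to separate overlapping genes in any value here, and splits between Saa1 and Saa2, and between Orm1 and Orm2, rest on the authors' counting. With 3 libraries a group, the smallest exact permutation p is 0.1.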
